A study of Mus musculus with 30 samples.

Results

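The genes described here are those of the mouse major histocompatibility complex, whose symbols start with H2-. They were chosen by name: every non-control probe whose gene name in the array files starts with H2- is a member, whatever its signal. This gave 55 probes of 36 genes, out of 41174 probes in all with 27962 gene names. By their known products 38 probes belong to 25 class I genes and 15 probes to 9 class II genes, and 2 probes belong to H2-Ke2 and H2-Ke6, genes that lie in the same region and encode neither kind of molecule. All 36 genes lie on chromosome 17 in the RefSeq annotation, which names H2-Ke2 Pfdn6 today. H2-Eb2, which the array files list under a clone name with 2 probes, falls outside this choice.

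The arrays measured liver RNA of 30 mice, with 1 mouse per single-colour array (Agilent whole mouse genome, 4x44K). The mice were of the inbred strains DBA/2 (D2) and C57BL/6 (B6), with no transgene or deletion named, and each strain was fed an iron-deficient diet (less than 3 mg of iron per kg), an iron-balanced diet (200 mg per kg) or an iron-enriched diet (8.3 g per kg). There were 5 mice in every one of the 6 groups, and every mouse has an animal code of its own in the labels, so replicates were separate animals. The sources used here give neither the age, the sex nor the length of feeding.

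Class I molecules pair a heavy chain with beta-2 microglobulin and show peptides from inside the cell to CD8+ T cells and natural killer cells. Nearly all nucleated cells, hepatocytes included, express the classical heavy chains H2-K1 and H2-D1, and interferon raises them. Class II molecules pair an alpha with a beta chain, are loaded with peptide after the invariant chain Cd74 is removed, and are made mainly by macrophages, dendritic cells and B cells, which in liver include the Kupffer cells. Inbred strains carry different versions of the whole region, called haplotypes: D2 mice are known for haplotype d and B6 mice for haplotype b, and b mice are known to carry a deletion at the start of H2-Ea that stops its transcription. A probe designed on one haplotype can therefore bind less to the transcript of the other, so all probes of a gene were set beside each other. Neither probe sequences nor strain variants were used here, and whether probes of near-identical class I genes also bind each other's transcripts was not tested, so the separate levels of such genes are uncertain.

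The windows around the annotated starts of 5 genes are printed because they show the letters that class I and class II genes are known to share. They come from RefSeq, assembly GRCm38.p6 of C57BL/6J, and run from 250 bases before to 50 bases after the start, 5′ to 3′ on the gene's strand. Capitals mark matches on either strand to enhancer A (GGGATTCCC, known to be bound by NF-kappa-B), the interferon response element (TTTCACTTC, bound by interferon regulatory factors), the X box (CTAGCAAC, bound by the RFX complex) and the Y box (TGATTGG, bound by NF-Y). No marked match overlaps another, and H2-K1 has a further, overlapping window that is not shown.
H2-K1 (chr17:34000298-34000597, minus strand): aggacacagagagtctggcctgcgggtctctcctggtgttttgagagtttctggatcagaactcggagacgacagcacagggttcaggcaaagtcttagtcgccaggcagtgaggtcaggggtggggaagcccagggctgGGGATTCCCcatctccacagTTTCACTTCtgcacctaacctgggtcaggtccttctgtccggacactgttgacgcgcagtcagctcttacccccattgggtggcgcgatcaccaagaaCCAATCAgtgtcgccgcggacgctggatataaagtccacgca
H2-D1 (chr17:35262844-35263143, plus strand): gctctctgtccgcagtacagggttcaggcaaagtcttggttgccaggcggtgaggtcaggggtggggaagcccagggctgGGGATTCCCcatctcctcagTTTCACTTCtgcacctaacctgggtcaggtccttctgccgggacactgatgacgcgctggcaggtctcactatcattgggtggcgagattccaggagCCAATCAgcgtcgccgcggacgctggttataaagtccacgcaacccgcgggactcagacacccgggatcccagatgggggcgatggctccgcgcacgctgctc
H2-Q10 (chr17:35469839-35470138, plus strand): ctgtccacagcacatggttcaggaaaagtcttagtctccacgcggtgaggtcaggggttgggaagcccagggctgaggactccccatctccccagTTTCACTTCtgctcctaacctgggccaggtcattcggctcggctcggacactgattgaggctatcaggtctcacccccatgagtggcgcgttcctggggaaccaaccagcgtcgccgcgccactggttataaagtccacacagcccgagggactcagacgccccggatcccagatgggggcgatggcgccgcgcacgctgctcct
H2-Aa (chr17:34287774-34288073, minus strand): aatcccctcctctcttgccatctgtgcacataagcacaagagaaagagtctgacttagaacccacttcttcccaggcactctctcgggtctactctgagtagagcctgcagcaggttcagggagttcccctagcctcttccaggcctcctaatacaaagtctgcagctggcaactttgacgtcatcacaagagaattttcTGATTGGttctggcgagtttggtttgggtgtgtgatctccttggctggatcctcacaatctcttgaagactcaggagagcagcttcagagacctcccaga
H2-Eb1 (chr17:34305617-34305916, plus strand): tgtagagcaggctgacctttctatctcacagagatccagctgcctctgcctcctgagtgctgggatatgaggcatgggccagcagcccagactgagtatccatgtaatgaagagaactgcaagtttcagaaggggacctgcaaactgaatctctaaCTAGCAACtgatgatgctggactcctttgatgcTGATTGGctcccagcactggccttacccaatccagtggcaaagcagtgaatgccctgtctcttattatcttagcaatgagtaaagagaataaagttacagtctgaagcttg

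Of the 36 genes 27 have such a window, 18 of class I, 7 of class II and both region genes. Enhancer A stood in 3 of the 18 class I windows (H2-D1, H2-K1 and H2-Q7) and the interferon element in 5 (those and H2-M3 and H2-Q10), against 0.353% and 0.505% of all 32851 windows in the table. Neither was found in the 7 class II windows. The X box stood in 2 class II windows (H2-Eb1 and H2-Ob) and in 1.32% of all windows. The Y box stood in 6 of 7 class II windows and 13 of 18 class I windows, against 7.82% of all. These are matches of letters in the B6 sequence and say nothing of binding in these livers.

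On each array 62.5 to 78.5% of probes were well above background, in the words of the scanner software. The number of arrays limits the precision. Hepatocyte markers such as Alb (mean log2 level 18.9) were above background on all 30 arrays, as were all 12 Kupffer cell and macrophage markers. The arrays were scanned on 3 days that held 5, 11 and 14 arrays, of which 4, 6 and 5 were D2 arrays. Levels below are log2 of quantile-normalised signal with a floor at 3.80, and they are comparable between mice for a probe but not between probes. Differences are log2, each given with limma's standard error (SE) and an adjusted p over all 29986 probes kept, and a probe is said to have passed at an adjusted p under 0.05. A probe was kept when it was well above background on at least 3 arrays of each strain.

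That filter kept 44 of the 55 H2 probes, from 25 genes: 29 of 16 class I genes, 13 of 7 class II genes and both region genes. H2-K1, H2-Q1 and H2-Bl have 3 kept probes each, H2-Q10 and H2-Ab1 have 4, and H2-Aa, H2-D1, H2-DMb2, H2-M3, H2-Oa, H2-T22 and H2-T24 have 2. H2-D4, H2-DMa, H2-DMb1, H2-Eb1, H2-Ke2, H2-Ke6, H2-M10.2, H2-Q2, H2-Q5, H2-Q7, H2-Q8, H2-T10 and H2-T23 have 1 each. The 11 probes left out have 1 gene each. Of these, 10 were near the floor in both strains and above background on at most 4 of 30 arrays: H2-M1, H2-M9, H2-M11, H2-M10.1, H2-M10.3, H2-M10.4, H2-M10.5, H2-M10.6, H2-T3 and H2-Ob. H2-M10 genes are known from the vomeronasal organ, H2-T3 from the intestinal epithelium and H2-Ob from B cells. The other one left out, H2-Ea, differed between the strains and is described below. No H2 probe was saturated, and H2-T10 lacks a value on 3 arrays.

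D2 against B6 asks how the livers of the strains differ at these genes, averaged over diets. In D2 livers the class II gene H2-Ea was well above background, while in nearly all B6 livers it lay at the floor. The class I genes H2-K1, H2-Q10 and H2-Q8 were lower in D2 livers at all of their probes (3, 4 and 1), with differences of -0.25 to -1.90. H2-T24, H2-M3, H2-M10.2, H2-Q2 and H2-T23 were higher, but H2-Q2 and H2-T23 passed within neither scan day 2 nor scan day 3. For H2-Aa, H2-Ab1, H2-Q1 and H2-Bl the answer depended on the probe.

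Of the 44 kept probes 29 passed, 11 higher and 18 lower in D2 livers, from 18 of 25 genes. Across all probes 50% passed (25.5% higher, 24.5% lower), so the share of 65.9% is to be read against a strain difference that touches much of the array. The median difference was -0.02 over the H2 probes and -0.01 over all probes. The lowest D2 mouse stood above the highest B6 mouse, or the reverse, for 10 of the 44 probes and for 6.97% of all probes. Class I probes split into 11 higher, 13 lower and 5 that did not pass, class II probes into 0 higher, 4 lower and 9, and the region genes into 1 lower and 1. Within diets 20 probes passed on the deficient diet (27.7% of all probes), 22 on the balanced diet (29.6%) and 22 on the enriched diet (34.7%). Within scan day 2 and scan day 3 alone 23 and 24 passed (28.1% and 39.7% of all probes), while day 1 held only 1 B6 array.

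**Figure D1:**
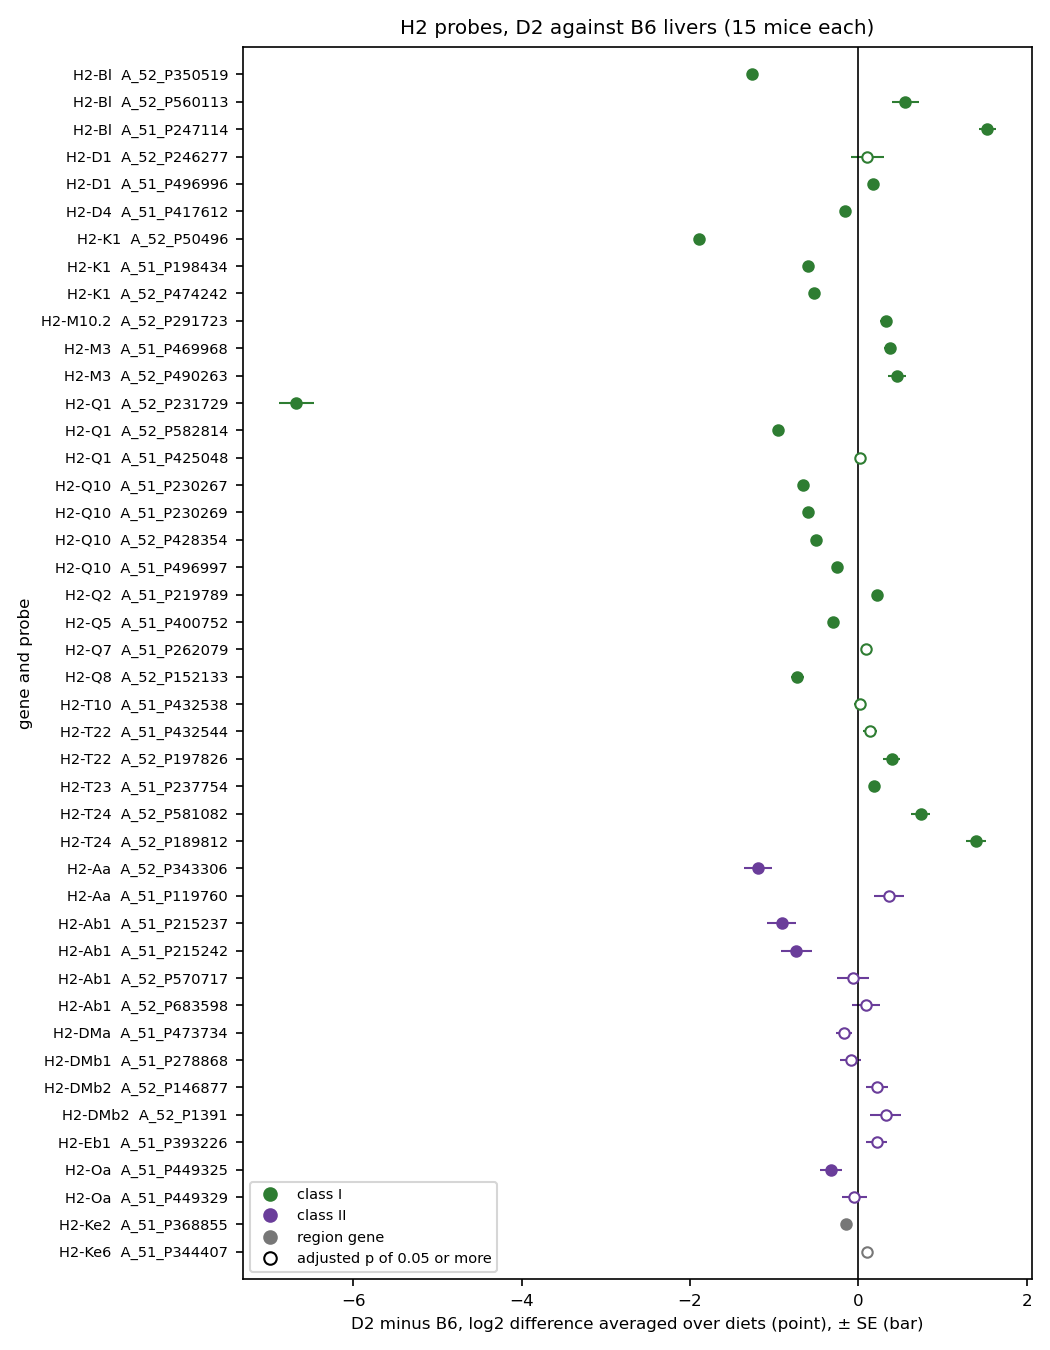
Log2 difference of D2 minus B6 livers, averaged over diets, for the 44 kept H2 probes (y axis: gene and probe; x axis: log2 difference). Points are limma estimates from 15 D2 and 15 B6 mice, bars are ± SE, filled points passed at an adjusted p under 0.05, and colour gives the class. The H2-Q1 probe A_52_P231729 lies far to the left at -6.68, and the 3 H2-Bl probes fall on both sides of 0.

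Among the classical class I genes, all 3 probes of H2-K1 were lower in D2 livers. Probe A_51_P198434, which is printed 10 times on each array, had 16.96, 17.17 and 17.54 (lowest, median and highest of 15) in D2 mice, against 17.71, 17.83 and 17.97 in B6 mice. Its difference was -0.60 (SE 0.050, adjusted p = 8.34e-11), and the 10 spots of one array varied by a median SD of 0.0329. Probe A_52_P474242 was lower by about as much, -0.53 (SE 0.052), with 14.89, 15.09 and 15.30 in D2 mice and 15.31, 15.59 and 15.93 in B6 mice. Probe A_52_P50496 had 12.56, 12.79 and 12.89 in D2 mice, against 14.38, 14.66 and 15.04 in B6 mice, a difference of -1.90 (SE 0.043). The strains did not overlap at any of the 3 probes, but the strain difference at A_52_P50496 was -1.30 beyond that of the brightest probe (SE 0.043).

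H2-D1, the other classical gene, moved the other way and by little. Its bright probe A_51_P496996 had 15.94, 16.25 and 16.44 in D2 mice, against 15.79, 16.04 and 16.41 in B6 mice, overlapping ranges with a difference of 0.17 (SE 0.054, adjusted p = 0.0102). The difference was 0.12 within scan day 2 and 0.03 within scan day 3, where it did not pass. Its dim probe A_52_P246277 ran from 4.66 to 6.31 in D2 mice and from 4.05 to 6.36 in B6 mice and did not pass (0.11, SE 0.198). H2-D4, a transcribed pseudogene in the B6 annotation, was -0.15 (SE 0.059, adjusted p = 0.0299) and was not called without 4 single mice, with an adjusted p of up to 0.0559.

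In the Q region, H2-Q10 encodes a secreted class I molecule that is known as a liver product. All 4 of its probes were lower in D2 livers, by -0.65 (A_51_P230267), -0.59 (A_51_P230269), -0.50 (A_52_P428354) and -0.25 (A_51_P496997), with adjusted p from 2.19e-12 to 4.07e-06. The brightest, A_51_P230269, had 16.64, 16.85 and 17.01 in D2 mice, against 17.21, 17.40 and 17.59 in B6 mice. A_51_P230267 had 15.83, 16.14 and 16.37 in D2 mice, against 16.49, 16.81 and 17.06 in B6 mice. The strains did not overlap at these 2 probes and overlapped at the other two. A_52_P428354 ran from 14.41 to 15.04 in D2 mice and from 14.98 to 15.53 in B6 mice, and A_51_P496997 from 16.53 to 16.92 in D2 mice and from 16.77 to 17.09 in B6 mice.

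H2-Q1 gave a different answer with each of its 3 probes. By A_52_P231729 the D2 mice had 3.80, 4.35 and 6.46, against 9.98, 11.19 and 12.06 in B6 mice. This probe was well above background on 7 of 15 D2 arrays and on all 15 B6 arrays, so the D2 level is mostly a bound. The measured means were 4.47 in D2 and 11.15 in B6 livers. At this probe the B6 signal was at least 89.3-fold higher than in D2 (fitted difference -6.68, SE 0.210, adjusted p = 3.9e-20). Here and for H2-Ea, such a bound sets the bright strain's mean against, per dim array, the higher of the probe's own value and the lowest signal that was well above background. That lowest signal is taken over all probes of the array, so the bound is approximate. By A_52_P582814 the D2 mice had 15.26, 15.53 and 15.86, against 16.41, 16.50 and 16.86 in B6 mice, a difference of -0.95 (SE 0.051, adjusted p = 7.25e-15). By A_51_P425048 the strains overlapped, from 14.80 to 15.20 in D2 and from 14.68 to 15.25 in B6 mice, and the difference was 0.02 (SE 0.050, adjusted p = 0.818).

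Of the other Q genes, H2-Q8 had 10.64, 10.94 and 11.52 in D2 mice, against 11.29, 11.68 and 12.28 in B6 mice, lower by -0.72 (SE 0.075, adjusted p = 5.11e-09). H2-Q5, annotated as a transcribed pseudogene in B6, was -0.30 (SE 0.040, adjusted p = 5.33e-07), with ranges that overlapped. H2-Q2 was higher in D2 livers, with 16.64, 16.81 and 16.98 in D2 mice and 16.37, 16.58 and 16.93 in B6 mice (0.22, SE 0.044, adjusted p = 0.000165), but it did not pass within scan day 2 (0.16) or scan day 3 (0.15). H2-Q7, which encodes a Qa-2 antigen held in the membrane by a lipid anchor, did not pass (0.08, SE 0.045, adjusted p = 0.124).

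The T genes that passed were higher in D2 livers. H2-T24 had 2 probes, both higher: A_52_P189812 had 5.18, 5.75 and 6.56 in D2 mice, against 3.80, 4.39 and 5.09 in B6 mice (1.40, SE 0.116, adjusted p = 7.29e-11). This probe was well above background on 15 of 15 D2 arrays but on 9 of 15 B6 arrays, and with normexp background correction the difference was 0.46. Its other probe, A_52_P581082, had 5.88, 6.49 and 7.04 in D2 mice, against 4.93, 5.81 and 6.38 in B6 mice (0.74, SE 0.110, adjusted p = 2.54e-06). H2-T23 encodes Qa-1, the ligand of the inhibitory receptor NKG2A, and had 16.68, 16.87 and 17.10 in D2 mice, against 16.49, 16.73 and 17.00 in B6 mice (0.18, SE 0.047, adjusted p = 0.00227). H2-T22, a ligand of gamma delta T cell receptors, passed at A_52_P197826, with 10.53, 11.01 and 11.42 in D2 mice and 10.25, 10.53 and 11.59 in B6 mice (0.39, SE 0.105, adjusted p = 0.00246), but not at A_51_P432544 (0.14, SE 0.082). Within scan day 2 and scan day 3 the H2-T22 call was lost, at 0.14 and 0.16, and so was that of H2-T23, at 0.12 and 0.14. H2-T10, its close relative, differed by 0.02 (SE 0.069, adjusted p = 0.86).

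H2-Bl, a class I gene annotated as a transcribed pseudogene in B6, was the only gene whose probes passed in both directions. A_51_P247114 had 7.90, 8.27 and 8.61 in D2 mice, against 5.60, 6.71 and 7.28 in B6 mice, higher by 1.53 (SE 0.103, adjusted p = 7.66e-13). A_52_P350519 had 11.57, 11.86 and 12.26 in D2 mice, against 12.94, 13.18 and 13.33 in B6 mice, a difference of -1.27 (SE 0.050, adjusted p = 6.17e-18). The strains did not overlap at either probe. A_52_P560113 had 8.15, 8.49 and 8.96 in D2 mice, against 6.88, 8.16 and 8.68 in B6 mice (0.56, SE 0.161, adjusted p = 0.00498), and it did not pass within scan day 3 (0.20).

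In the M region, H2-M3 presents peptides that start with N-formyl methionine, as bacterial and mitochondrial peptides do. Both of its probes were higher in D2 livers: A_51_P469968 had 9.58, 9.74 and 9.98 in D2 mice, against 9.07, 9.35 and 9.78 in B6 mice (0.37, SE 0.060, adjusted p = 9.3e-06). A_52_P490263 had 6.18, 6.55 and 7.29 in D2 mice, against 5.71, 6.19 and 6.80 in B6 mice (0.46, SE 0.110, adjusted p = 0.000911), though within scan day 2 it was 0.05 and did not pass. H2-M10.2 was the only gene of its family with a kept probe, and it stood at 10.26, 10.46 and 10.80 in D2 mice, against 9.70, 10.21 and 10.40 in B6 mice (0.32, SE 0.069, adjusted p = 0.000278).

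Among the class II genes, the alpha chain gene H2-Ea of the E molecule parted the strains. Its probe was well above background on 15 of 15 D2 arrays and on 1 of 15 B6 arrays. The D2 mice had 7.70, 7.92, 7.47, 8.68 and 8.47 on the deficient diet, 8.36, 7.41, 8.05, 7.54 and 7.69 on the balanced diet and 8.42, 8.09, 8.04, 8.58 and 8.42 on the enriched diet. Of the B6 mice 14 lay at the floor of 3.80 and 1, on the deficient diet, at 4.58. The measured means were 8.06 in D2 and 3.85 in B6 livers, and the D2 level was at least 16.2-fold higher, or at least 15.9-fold, 12.7-fold and 21.0-fold within the deficient, balanced and enriched diets. The probe failed the filter through the B6 arrays, and in a fit of all probes without that filter the adjusted p was 2.02e-21. Its partner H2-Eb1, the beta chain gene, ran from 9.54 to 10.58 in D2 mice and from 9.25 to 11.35 in B6 mice, and did not pass (0.22, SE 0.127, adjusted p = 0.162).

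The genes of the A molecule gave answers that differed by probe. For the alpha chain gene H2-Aa, A_52_P343306 had 6.29, 7.01 and 7.76 in D2 mice, against 7.45, 8.10 and 10.03 in B6 mice, lower by -1.19 (SE 0.171, adjusted p = 1.32e-06). A_51_P119760 had 7.82, 8.54 and 9.19 in D2 mice, against 7.32, 8.02 and 10.02 in B6 mice, and did not pass (0.37, SE 0.180, adjusted p = 0.0961). For the beta chain gene H2-Ab1, A_51_P215237 had 7.94, 8.61 and 9.15 in D2 mice, against 8.58, 9.34 and 11.35 in B6 mice (-0.91, SE 0.175, adjusted p = 7.99e-05). A_51_P215242 had 6.86, 7.63 and 8.21 in D2 mice, against 7.41, 8.19 and 10.21 in B6 mice (-0.74, SE 0.182, adjusted p = 0.00128). The other two H2-Ab1 probes, A_52_P570717 and the brightest, A_52_P683598, did not pass, at -0.07 (SE 0.188) and 0.09 (SE 0.166). The ranges of the strains overlapped at all 6 probes of these genes.

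H2-DMa, H2-DMb1 and H2-DMb2 encode the DM molecule that exchanges peptides on class II, and none of their 4 probes passed, at -0.17, -0.09, 0.22 and 0.32. H2-Oa encodes a chain of DO, an inhibitor of DM, and was -0.32 at A_51_P449325 (SE 0.133, adjusted p = 0.0452), with 4.10, 4.91 and 5.40 in D2 mice and 4.58, 5.14 and 6.06 in B6 mice. That call was lost in 17 of 30 fits without a single mouse, with an adjusted p of up to 0.0826, and the other H2-Oa probe was -0.05 (SE 0.145). H2-Ke2, a prefoldin subunit gene, was -0.15 (SE 0.035, adjusted p = 0.000665), a call lost within scan days 2 and 3, and H2-Ke6, which encodes a steroid dehydrogenase, did not pass (0.10, SE 0.046, adjusted p = 0.0651).

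One B6 mouse, number 1 of the balanced group, had the highest level of all 30 at the H2-Aa, H2-Ab1 and H2-Eb1 probes. Without it 32 H2 probes passed, 16 higher and 16 lower in D2 livers, and 49.7% of all probes. Of the 13 class II probes 6 then passed, in place of 4. H2-Aa A_51_P119760 (0.50, adjusted p = 0.00235), H2-Eb1 (0.32, adjusted p = 0.00487) and H2-DMb2 A_52_P146877 (0.30, adjusted p = 0.0252) were higher in D2, and H2-Oa A_51_P449325 no longer passed (-0.30, adjusted p = 0.0684). The 2 probes of H2-Aa then passed in opposite directions, since A_52_P343306 stayed lower (-1.06).

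**Figure D2:**
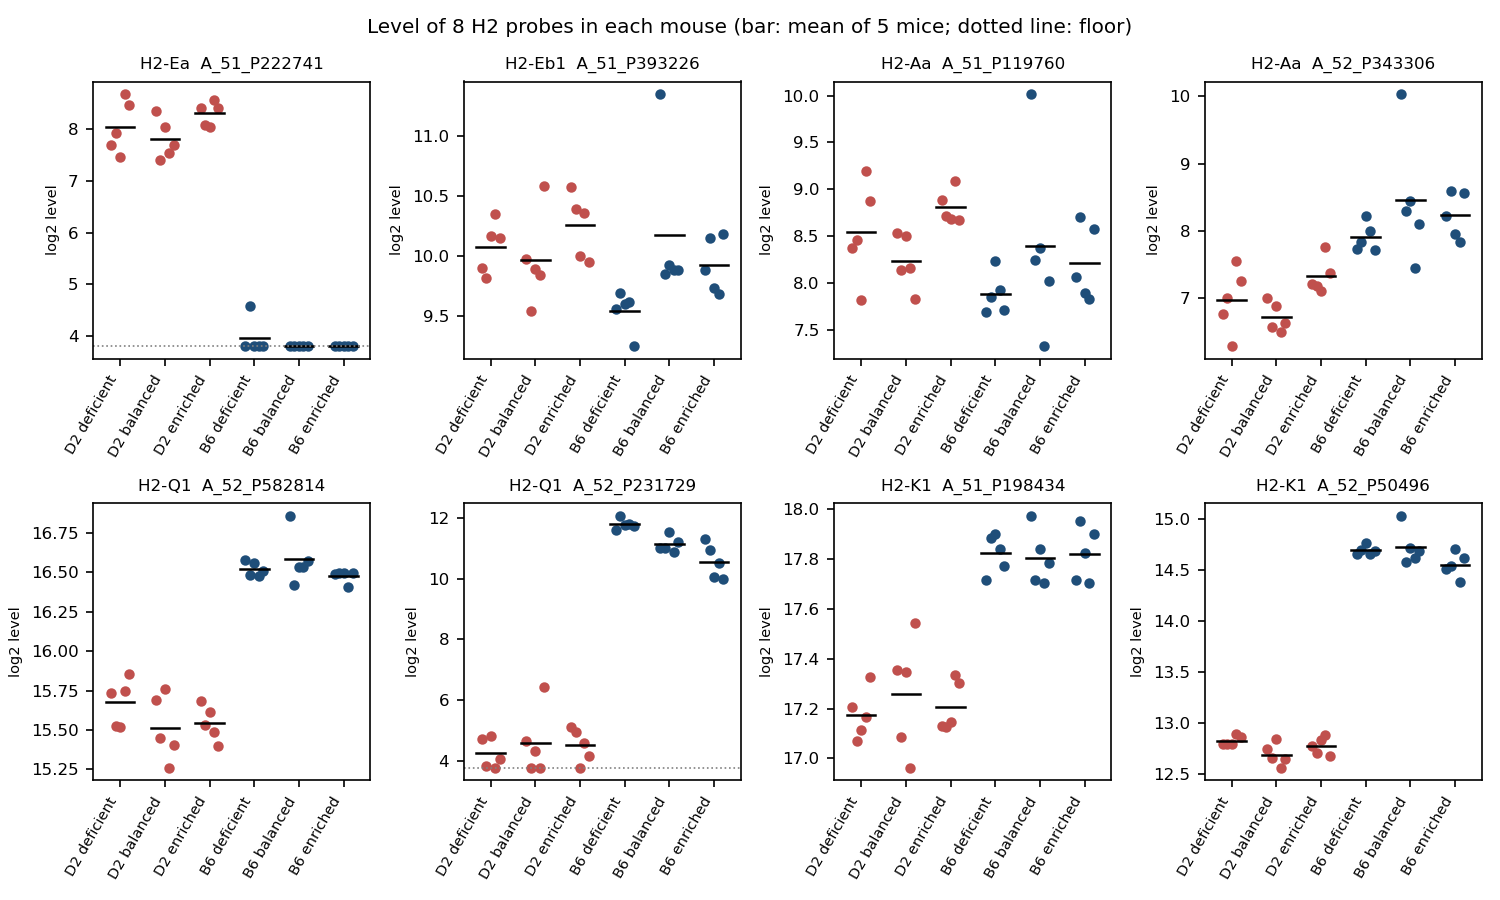
Log2 level of 8 H2 probes in each mouse (y axis) by group (x axis), D2 groups in red and B6 groups in blue; each point is a mouse, the bar is the mean of 5 mice and the dotted line is the floor. H2-Ea lies at the floor in 14 of 15 B6 mice, H2-Q1 A_52_P231729 is low in all D2 mice, and the 2 probes of H2-Aa place the strains differently.

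The probes of a gene were read on the same RNA of the same mouse, so the difference between them leaves out what sets one mouse apart from another at that gene as a whole. Only the strain contrast of this difference was read, not its size. For each of the 12 H2 genes with 2 or more kept probes, each further probe was set against the brightest one within each mouse, which gave 19 pairs. In 8 of 19 pairs (42.1%), from 5 genes, the D2 and the B6 mice did not overlap, against 5.14% of the 9654 pairs of all 6693 genes with 2 or more kept probes. The median size of the strain difference between probes was 0.34 for the H2 pairs and 0.16 for all pairs. The 5 genes were H2-Aa, H2-Ab1, H2-Bl, H2-K1 and H2-Q1. In H2-Aa the second probe minus the first was -1.67 to -1.19 in D2 mice, against -0.10 to 0.16 in B6 mice. In H2-Ab1, A_51_P215237 minus the brightest was -3.00 to -2.61 in D2 mice, against -1.93 to -1.69 in B6 mice. In H2-Q1, A_52_P231729 minus the brightest was -11.95 to -8.95 in D2 mice, against -6.52 to -4.42 in B6 mice, but with this probe above background on 7 of 15 D2 arrays the D2 values are partly set by the floor.

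In the other pairs the ranges of the strains overlapped, with differences between probes that varied in size. In H2-K1, A_52_P474242 and the brightest differed in their strain difference by 0.07 (SE 0.042), and in H2-M3 the 2 probes did so by 0.09 (SE 0.093). In H2-Q10 A_51_P230267 and A_52_P428354 were within -0.06 (SE 0.030) and 0.09 (SE 0.060) of the brightest probe, while A_51_P496997 stood 0.34 apart (SE 0.041). The probes of H2-T24 stood 0.66 apart (SE 0.178) and those of H2-T22 0.26 (SE 0.041). Of the 12 genes, 4 had all probes passing in one direction (H2-K1, H2-Q10, H2-M3 and H2-T24), 6 had some passing and some not, H2-DMb2 had none, and H2-Bl passed in both directions.

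**Figure D3:**
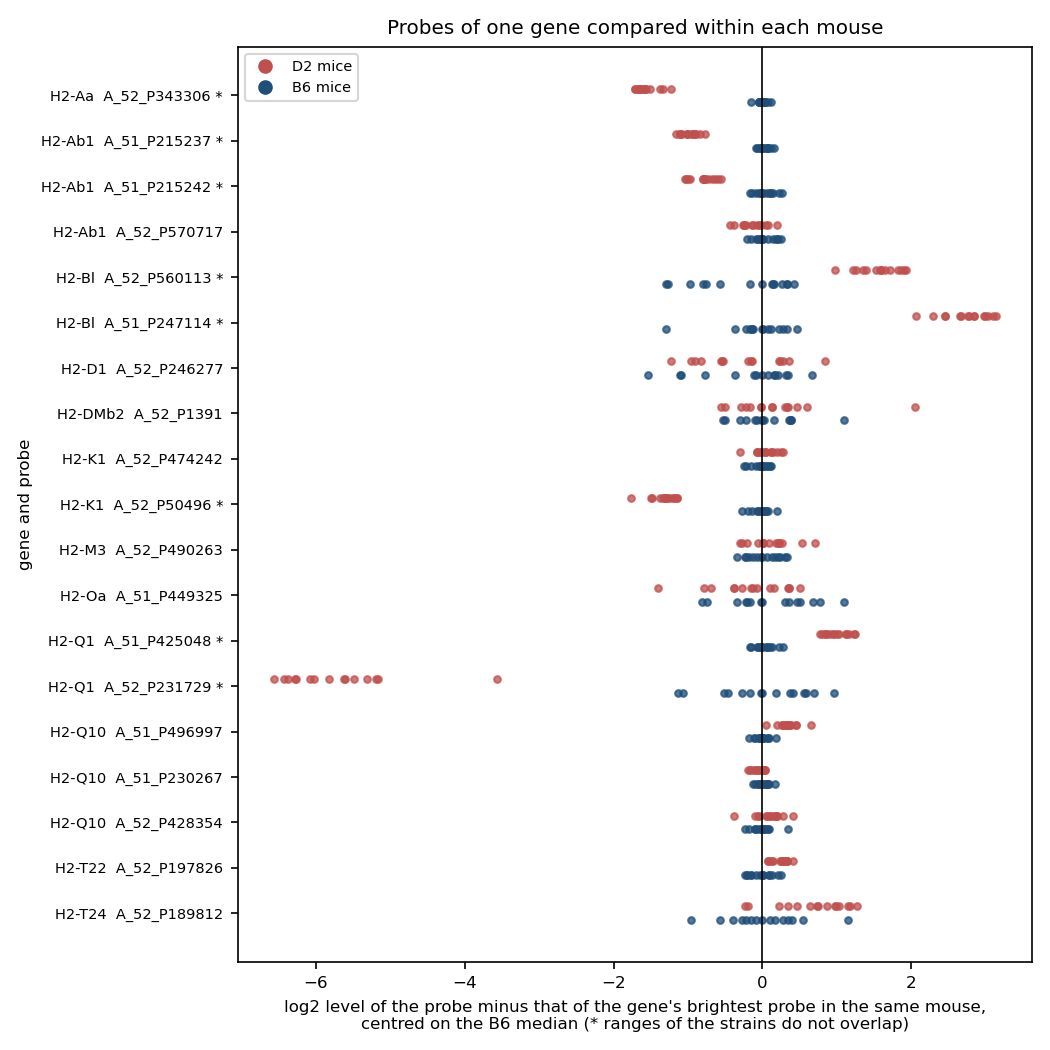
Within-mouse log2 difference between a probe and the brightest probe of its gene, centred on the B6 median (x axis), for the 19 pairs of 12 H2 genes (y axis); each point is a mouse, D2 red and B6 blue. In the 8 pairs with an asterisk the strains do not overlap, among them H2-Aa, 2 pairs of H2-Ab1, both pairs of H2-Bl and both pairs of H2-Q1.

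Genes that act with the H2 molecules also differed between the strains, in a contrast that 50% of all probes passed. Of 13 genes tested of peptide loading and the immunoproteasome, 10 were higher in D2 livers, 0 lower and 3 did not pass (median 0.31). Among them were the peptide transporter subunit Tap1 (1.61, adjusted p = 2.78e-14), the proteasome subunit Psmb9 (1.78), Tapbpl (0.57) and the class I light chain B2m (0.45). Of 8 regulators of H2 transcription 5 were higher and 1 lower, with Irf2 (0.93), Irf1 (0.81) and Rfx5 (0.97) among the rises. Of 25 interferon response genes 24 were higher and 0 lower (median 0.92), with Mx2 (2.09), Isg15 (1.87), Ifit1 (2.10) and Ifit3 (1.65) the ones with the smallest adjusted p. Beside these, H2-K1 and H2-Q10 were lower and H2-T23, H2-D1 and H2-M3 higher, as above.

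Of the cells named above as the main makers of class II molecules, the markers of Kupffer cells and macrophages moved together, and those of B cells and dendritic cells did not. Across all probes 50% passed in this contrast. All 12 Kupffer cell and macrophage markers were lower in D2 livers (median -0.54), led by C1qc (-0.90), Adgre1 (-0.94), Cd5l (-0.77) and Clec4f (-0.71). Their summed signal was 50090 to 74772 in D2 mice, against 72585 to 144706 in B6 mice. Of 4 class II partner and processing genes tested 3 were lower, Ifi30 (-0.49), Lgmn (-0.36) and Ctsl (-0.23). The remaining one, the invariant chain Cd74, did not pass, with levels from 11.23 to 12.38 in D2 mice and from 11.24 to 13.60 in B6 mice. B cell markers gave 2 higher and 1 lower of 7, with a summed signal of 1293 to 3120 in D2 mice, against 792 to 1513 in B6 mice. Dendritic cell markers gave 0 higher and 1 lower of 6 (Flt3), T and NK cell markers 1 higher and 2 lower of 8. Cd209a was at the floor on all 30 arrays, and Ncr1 was above background on 4 D2 arrays and 1 B6 array. Of the remaining lists, sinusoidal endothelial markers also moved together, with 0 higher and 9 lower of 10 (median -0.25). Hepatocyte markers gave 2 higher and 3 lower of 7, biliary markers 3 lower of 5 and stellate cell markers 1 higher and 1 lower of 6. In whole liver, fewer cells of a type and less RNA per cell cannot be told apart, and the part of these markers in the H2 differences was not tested.

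The enriched against the balanced diet asks whether iron loading changes these genes. Averaged over strains 0 of 44 H2 probes passed in the limma fit, and 0 had an unadjusted p under 0.05, against 2.02% of all probes called. Within D2 livers 0 passed (3 at an unadjusted p under 0.05), with 0.0867% of all probes called, and within B6 livers 0 passed (also 3), with 5.34% called. The differences ran from -0.27 to 0.61 in D2 and from -0.57 to 0.52 in B6 livers. The D2 enriched mice did not overlap the D2 balanced mice at the 2 probes of H2-Aa, with 1.33% of all probes not overlapping, and there was no such H2 probe in B6 livers (5.58% of all). H2-Aa A_51_P119760 had 8.88, 8.72, 8.68, 9.09 and 8.67 in D2 enriched mice, against 8.54, 8.13, 8.50, 8.16 and 7.83 in D2 balanced mice (0.58, SE 0.312, adjusted p = 0.964). In B6 livers the same probe had 8.07, 8.71, 7.89, 7.83 and 8.57 in enriched mice, against 10.02, 8.24, 8.37, 7.32 and 8.02 in balanced mice (-0.18, SE 0.312).

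The deficient against the balanced diet asks the same of iron shortage. Averaged over strains 2 of 44 H2 probes passed, both lower, against 7.34% of all probes (3.7% higher, 3.65% lower), and 11 had an unadjusted p under 0.05. One was H2-T24 A_52_P581082 (-0.45, SE 0.135, adjusted p = 0.042). It had 6.41, 6.49, 6.21, 5.94 and 5.88 in D2 deficient mice, against 6.44, 6.86, 6.85, 7.04 and 6.88 in D2 balanced mice. In B6 livers it had 5.72, 6.15, 4.93, 5.59 and 5.75 in deficient mice, against 5.94, 5.81, 6.05, 5.76 and 5.93 in balanced mice. The groups overlapped in both strains, and the second H2-T24 probe, A_52_P189812, was -0.35 (SE 0.143, adjusted p = 0.151).

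The other was H2-Bl A_51_P247114 (-0.41, SE 0.126, adjusted p = 0.0424). It had 7.94, 8.06, 7.90, 8.09 and 8.12 in D2 deficient mice, against 8.45, 8.35, 8.43, 8.29 and 8.61 in D2 balanced mice, where the groups did not overlap. In B6 livers it had 6.91, 6.84, 5.60, 6.48 and 6.67 in deficient mice, against 7.28, 6.71, 6.50, 7.23 and 6.87 in balanced mice, where they did. The other H2-Bl probes did not pass, at 0.13 (A_52_P350519) and -0.22 (A_52_P560113). Both calls were near the threshold: leaving out single mice ended that of H2-Bl in 12 of 30 fits and that of H2-T24 in 14, with adjusted p of up to 0.0796 for H2-Bl and 0.0853 for H2-T24. Neither passed within scan day 2 or 3, with scaling to the 75th percentile or without normalisation.

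Within D2 livers 1 of 44 H2 probes passed on the deficient diet, with 4.16% of all probes called (1.69% higher, 2.46% lower), and within B6 livers 0 (5 at an unadjusted p under 0.05), with 1.44% called. The D2 call was H2-Q8, which had 11.29, 11.52, 11.27, 11.23 and 11.10 in D2 deficient mice, against 10.94, 10.84, 10.91, 10.64 and 10.76 in D2 balanced mice. These groups did not overlap, and the difference was 0.46 (SE 0.130, adjusted p = 0.041), a call lost in 9 of 30 fits without a single mouse (adjusted p up to 0.112) and within each single scan day. In B6 livers H2-Q8 had 11.85, 11.68, 11.64, 11.80 and 11.97 in deficient mice, against 12.28, 11.58, 11.29, 11.68 and 11.52 in balanced mice (0.12, SE 0.130, adjusted p = 0.813). The difference between the strains' effects was 0.35 (SE 0.185, adjusted p = 0.781). Deficient and balanced mice did not overlap at 3 H2 probes in D2 livers (H2-Q8 and, lower, H2-Bl A_51_P247114 and A_52_P560113) and at 2 in B6 livers (H2-Eb1, and H2-Q1 A_52_P231729 at 0.66 with an adjusted p of 0.509), with 6.1% and 2.54% of all probes doing so.

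The class II probes leaned one way in each strain without passing. These 13 probes come from 7 genes and were read on the same mice, so their counts are not those of independent replicates. Both diets of a strain also share its balanced mice. The medians of all probes lay between 0.003 and 0.020 in these comparisons. On the deficient diet 2 of 13 were below 0 in D2 livers (median 0.17) and 13 of 13 in B6 livers (median -0.51). On the enriched diet 1 of 13 was below 0 in D2 livers (median 0.52) and 10 of 13 in B6 livers (median -0.10). H2-Eb1 had 9.55, 9.69, 9.60, 9.62 and 9.25 in B6 deficient mice, against 11.35, 9.85, 9.92, 9.89 and 9.88 in B6 balanced mice, groups that did not overlap (-0.64, SE 0.220, adjusted p = 0.181). Much of the B6 lean rested on mouse 1 of the balanced group: without it the median was -0.14 on the deficient diet, with 13 of 13 still below 0, and on the enriched diet it was 0.18 and 2 of 13 were below 0. The interaction contrasts, which test whether a diet effect differs between D2 and B6, passed for 0 of 44 H2 probes under enrichment (2 at an unadjusted p under 0.05; 0.887% of all probes called) and 0 under deficiency (1 unadjusted; 0.02% called).

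**Figure D4:**
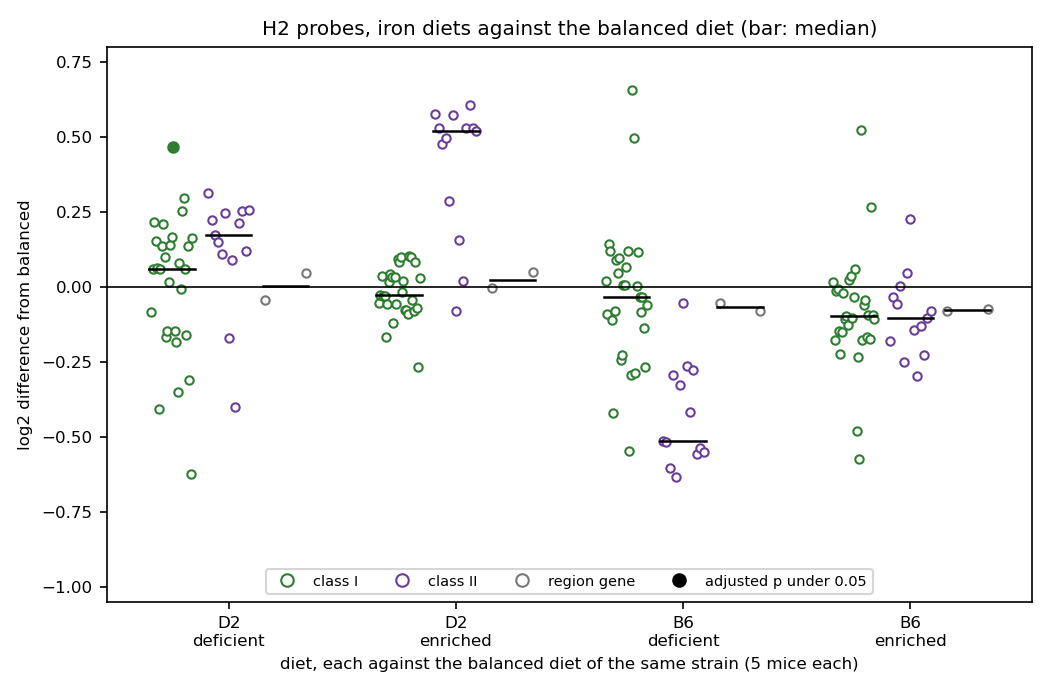
Log2 difference from the balanced diet (y axis) for the 44 kept H2 probes on the deficient and the enriched diet in D2 and B6 livers (x axis); each point is a probe, the bar is the median of its class, and the filled point passed at an adjusted p under 0.05. H2-Q8 in D2 deficient livers is the one filled point, and the class II medians lie between 0.52 in D2 enriched livers and -0.51 in B6 deficient livers.

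Averaged over strains, 2.02% of all probes passed on the enriched diet and 7.34% on the deficient diet. On the enriched diet 0 of 13 loading and immunoproteasome genes rose and 2 fell, Calr (-0.63) and Psmb8 (-0.51). Of 25 interferon response genes 3 fell, Ifih1 (-0.35), Isg15 (-0.68) and Ifit3 (-0.61). Within B6 livers 3 of the 25 fell (5.34% of all probes called) and within D2 livers 0 (0.0867% called). Under deficiency 3 of the 13 fell, Calr (-0.34), Psmb10 (-0.33) and Psmb9 (-0.45), and 13 of the 25 interferon genes, led by Ifih1 (-0.46), Oasl1 (-0.78), Isg15 (-0.82) and Ifit1 (-0.91), with a median of -0.46 over the list. Of 8 regulators 1 fell, Irf2 (-0.50). Within single strains fewer interferon genes fell under deficiency, 1 of 25 in B6 livers (1.44% of all probes called) and 2 of 25 in D2 livers (4.16% called). Kupffer cell, dendritic cell, B cell and T and NK cell markers had 0 calls in either averaged diet comparison by the limma fit, and so had the class II partner, hepatocyte and biliary lists. Sinusoidal endothelial markers had 1 rise under enrichment and 4 rises and 1 fall under deficiency, and stellate cell markers had 0 calls and 2 rises. These comparisons share their balanced controls.

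Mice of one group differed from each other in class II level, and they did so together with Cd74, the invariant chain. This relation was looked for after the values had been seen. The slope of each probe on the Cd74 level within the 6 groups was fitted with limma over 29985 probes, so that a slope of 1 means equal log2 steps. Of 13 class II probes 10 passed, all positive, and of 29 class I probes 16 passed, all positive, against 9.3% of all probes (4.48% with a positive slope). Neither region gene passed. With scan day as a block the class II count was again 10 while the class I count was 1, and 0.46% of all probes passed.

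The slopes were steepest for the chains of the A molecule, 1.14 (SE 0.069) and 1.08 (SE 0.066) at the H2-Aa probes and 1.05 to 1.16 at the 4 H2-Ab1 probes, with adjusted p from 4.22e-12 to 3.03e-09. They were 0.78 (SE 0.073) for H2-DMb2 A_52_P146877, 0.74 (SE 0.068) for H2-DMb1, 0.55 (SE 0.127, adjusted p = 0.0127) for H2-Eb1 and 0.45 (SE 0.091, adjusted p = 0.00517) for H2-DMa. The H2-Eb1 slope was -0.07 in D2 mice alone (adjusted p = 0.914) and 0.70 in B6 mice alone (adjusted p = 0.00204). Both H2-Oa probes and H2-DMb2 A_52_P1391 did not pass. Slopes of class I probes were shallower, with a median of 0.18 and 0.13 (SE 0.060, adjusted p = 0.147) for the brightest H2-K1 probe. The 2 probes of H2-Aa, whose strain differences had opposite signs, had slopes within 1 SE of each other. H2-Ea was not kept and was not fitted.

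B6 balanced mouse 1 had the highest Cd74 level, 13.60, against 11.24 to 11.98 in the other four of its group, and it lay 1.52 above its group mean. Without it and mouse 4 of that group, the mice farthest from the median, 9 of 13 class II probes passed and 9 of 29 class I probes, 1 of them with a negative slope. In that fit 13% of all probes passed, 4.73% with a positive slope. H2-Eb1 was not among the class II probes that passed there (0.19, adjusted p = 0.597). In D2 mice alone 8 of 13 class II probes passed and 0 of 29 class I probes, with 3.88% of all probes (1.06% with a positive slope). In B6 mice alone the counts were 9 and 1, with 0.947% of all probes. Of the cell markers, 9 of 12 Kupffer cell and macrophage markers passed with a positive slope on Cd74 (7 with scan day as a block). Across all probes 4.48% did so (0.46% with the block). Of 8 T and NK cell markers 3 passed with a positive slope and 1 with a negative slope (1 and 0 with the block). Nkg7 was the one that passed in both fits (0.53, adjusted p = 0.00039 in the reported fit). Of 10 sinusoidal endothelial markers 1 passed with a positive slope (0 with the block). Of 7 B cell and 6 dendritic cell markers 0 passed with a positive slope. With a negative slope 1 and 2 of them passed (0 and 0 with the block). Of 25 interferon response genes 3 passed with a positive slope (0 with the block), and the median slope of the list was 0.31. Of 13 loading and immunoproteasome genes 4 passed with a positive slope (0 with the block). The part of these markers and genes in the class II slopes was not tested.

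**Figure D5:**
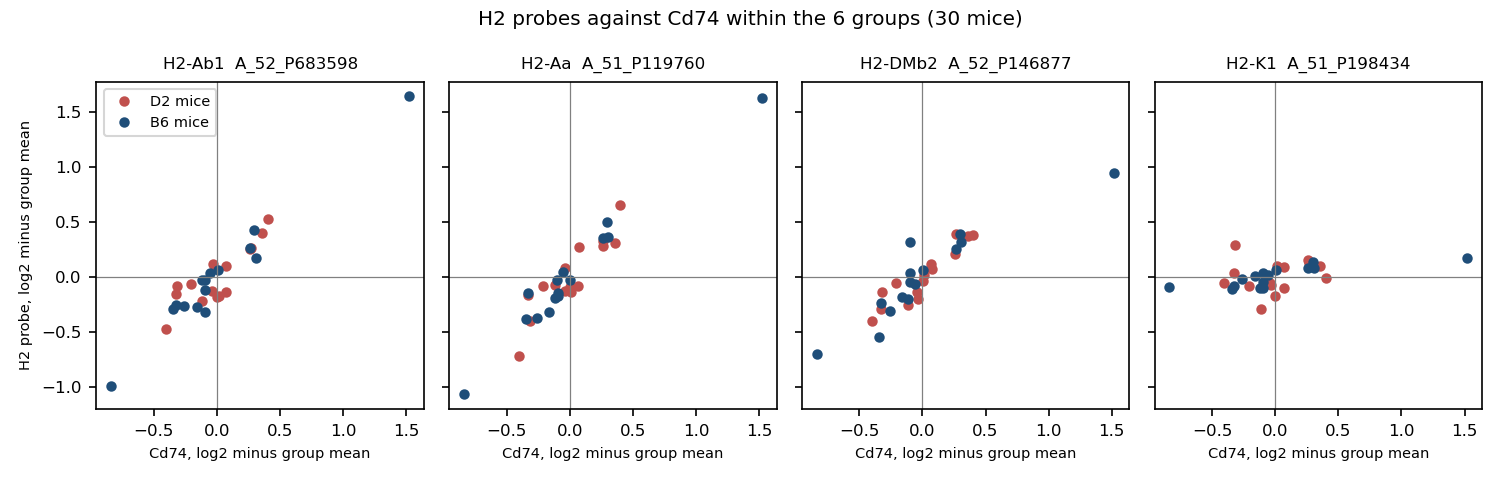
Log2 level minus group mean of 4 H2 probes (y axis) against that of Cd74 (x axis) in 30 mice, D2 red and B6 blue; each point is a mouse. H2-Ab1 and H2-Aa follow Cd74 with slopes of 1.05 and 1.14, H2-DMb2 with 0.78, and the class I gene H2-K1 with 0.13; the point at the upper right is B6 balanced mouse 1.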

How the data were processed

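RNA of 30 mouse livers was hybridised to single-colour arrays, 5 mice in each of 6 groups. The deposited scanner intensity files come from Agilent Feature Extraction (9.5.1 per the labels, 9.1.3.1 per the file headers). The intensity used was the processed signal, background-corrected by that software per the file headers. A deposited value table held the same signals (largest difference 0, column medians 58.9 to 117, no centring, linear scale). Per the labels, the authors normalised by quantiles, dropped probes within 2.6 SD of background and used ANOVA and a test per diet pair.

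Here, non-control spots without an outlier flag were averaged per probe, quantile-normalised, floored at a signal of 13.9 and set to log2. Probes well above background on at least 3 arrays of each strain were kept (29986 of 41174). limma 3.58.1 in R 4.3.3 fitted the 6 group means, with Benjamini-Hochberg adjustment over all kept probes at 0.05. Python 3.11.15 with pandas 2.3.3 and matplotlib 3.10.9 read the files and drew the figures. The fit and the slope fit were tested on simulated data.

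The H2 members, the 12 lists and the tests were chosen with earlier results of these data known. Genes were named by a rule: the 8 genes with the largest called strain difference in each direction, every gene called by diet, H2-Ea and H2-Eb1, and all probes of each, with up to 4 called genes per list by adjusted p; 1 gene that this rule names is not reported here. The remaining members were added so that each has its value or count. Of the H2 probes, 45 were matched to RefSeq names by accession and 10 by symbol.

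Alternatives were other scalings, background corrections and filters, slide and scan day as blocks, single scan days, fewer arrays, 1 probe per gene, a plain t-test and fits without each mouse in turn. Leaving out B6 balanced mouse 1 as a reading of its own and the slopes on Cd74 were added after the data had been seen.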

Additional observations from a re-analysis of the deposited data

Results flagged for a closer look

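In groups of 5 mice, a mouse stands apart when its gap to the nearest of the others, divided by the range of the group, is above 0.71. For independent groups chance gives about 1 such group in 20. Here 11 were found among the 174 groups of the 29 H2 probes examined. These probes were read on the same mice, so the count cannot be judged by that rate. The other kept H2 probes were not examined. Among them was H2-Eb1, where B6 balanced mouse 1 had 11.35 against a group median of 9.89. B6 balanced mouse 1 was highest of all mice for H2-Aa, H2-Ab1 and H2-Eb1. Within its own group it was highest for H2-Q2 (ratio 0.782, level 16.93 against 16.65 for the next mouse), H2-D1 A_51_P496996 (0.752, 16.41 against 16.05) and H2-T22 A_52_P197826 (0.728, 11.59 against 10.75). B6 enriched mouse 4 was lowest in its group for H2-Q1 A_52_P582814 (0.909, 16.41 against 16.49), H2-Q5 (0.885, 16.40 against 16.64) and H2-K1 A_52_P474242 (0.743, 15.31 against 15.54).

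The other five mice stood apart at 1 probe each. B6 balanced mouse 3 was lowest for H2-M10.2 (0.886, 10.05 against 10.36), and B6 enriched mouse 2 was highest for H2-Q10 A_52_P428354 (0.752, 15.37 against 15.16). D2 enriched mouse 2 was lowest for H2-Q10 A_51_P230267 (0.819, 15.94 against 16.13), and D2 enriched mouse 1 was highest for H2-Bl A_52_P350519 (0.789, next mouse at 11.86). D2 balanced mouse 5 was highest for H2-Bl A_52_P560113 (0.713, 8.96 against 8.63).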

How the results depend on the processing

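No H2 difference that passed changed its sign under any alternative run, and 338 of 372 checks outside the single-mouse fits kept the call. Within scan day 2 and scan day 3, with fewer arrays, 10 calls each were lost of 32, without normalisation 5 and with scaling to the 75th percentile 4. Without normalisation the median of all probes was itself shifted by -0.18 in D2 against B6. The strain count was 14 of 25 with 1 probe per gene (50.3% of all probes in that run), and 27 to 32 of 44 without single mice. For the averaged deficient diet, with 2 calls, the count was 1 with the 75th percentile, without normalisation and within scan day 3 (there neither H2-Bl nor H2-T24), 1 with only the compared groups, 0 within scan day 2, 4 with slide or with scan day as a block, 11 by the plain t-test unadjusted and 0 to 3 without single mice. For the deficient diet in D2, with 1 call, the count was 0 with the 75th percentile, without normalisation and within scan days 1 and 2 (within scan day 3 H2-Q8 was lost too), 2 with normexp and with only the compared groups, 3 with the slide block, 5 with the scan-day block, 10 by the plain t-test unadjusted and 0 to 2 without single mice. For the comparisons with 0 calls, scan day 3 gave 2 for enrichment averaged, 2 in D2 and 1 for its interaction. The plain t-test unadjusted gave 3 for enrichment in D2, 4 in B6, 5 for deficiency in B6, and 1 and 2 for the interactions with enrichment and deficiency, and without single mice these counts were 0 to 0. The class I slopes on Cd74 that passed, 16 in the reported fit and all positive, numbered 1 with the scan-day block, 0 in D2 mice alone, 1 in B6 mice alone and 9, of them 1 negative, without the 2 farthest mice. The cause of these moves was not tested. No paired analysis was possible because the replicate numbers follow the order of deposition and pair no mice. Signals near background limit H2-Ea in B6 and H2-Q1 A_52_P231729 in D2 to bounds, and H2-T24 A_52_P189812 in B6 and H2-DMb2 A_52_P1391 in both strains were above background on only part of the arrays.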
